A study of Homo sapiens with 36 samples.

Results

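NF-kB subunits and the genes that feed back on them were followed in 2 human cell lines given a water extract of Aconiti Lateralis Radix Preparata (ACD), wortmannin or vehicle. The 10 genes were taken by symbol from the 60675 genes of the count table, and were chosen with earlier results of these data known. They were the subunits NFKB1, NFKB2, REL, RELA and RELB, the inhibitors NFKBIA and NFKBIE, the ubiquitin-editing enzyme TNFAIP3, the ubiquitin ligase BIRC3 and the adhesion molecule ICAM1. The study had asked in which of these kinds of cell, brain-derived or gut-derived, ACD acts more. SW1783 is an astrocytoma line, kept in L-15 medium without added CO2, and HT29 is a colorectal adenocarcinoma line, kept in DMEM with CO2, so line and medium cannot be told apart. The 36 libraries formed 12 groups of 3 replicates, all taken after 24 h. In each line, batch A held vehicle and wortmannin (10 µM), which blocks the kinase PI3K, and batch B held its own vehicle and ACD at 500, 100 and 20 µg/mL, called high, medium and low. The vehicle was 0.1% DMSO by the labels. The labels name no genetic change in any group, and nothing said that replicates came from separate cultures, so p-values measure only the spread between these samples, which may be technical.

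NF-kB is a family of transcription factors that work as dimers. In resting cells, inhibitors such as NFKBIA hold dimers of RELA, REL and the NFKB1 product in the cytoplasm. Cytokines, microbial products and stress activate kinases that remove the inhibitor, and the dimers then enter the nucleus and bind kappaB sites in DNA. A slower arm, driven by the kinase MAP3K14, processes the NFKB2 product and releases dimers with RELB. Several targets of NF-kB are its own brakes: NFKBIA and NFKBIE rebind the dimers, and TNFAIP3 edits the ubiquitin chains that carry the signal upstream.

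The promoters are shown because some of these genes are known to be read by NF-kB itself. RefSeq promoter windows (GRCh38.p14) ran from 250 bases before to 50 bases after an annotated start, and 8 of the 10 genes had 12 such windows. NFKBIE and RELB had none. The kappaB consensus searched on both strands was GGGRNNYYCC, with R for A or G, Y for C or T and N for any base. It was found in 7 windows of 6 genes, and in 11.3% of the 35116 windows of all genes. The windows of RELA and ICAM1 held no exact match, which says nothing of other windows or of looser forms of the consensus. The ICAM1 window holds tggaaattcc, which differs from the consensus in its first letter only. A match is a run of letters and not a bound site. Capitals below mark the matches, in stretches of 30 bases on the gene's own strand. The REL and NFKB2 stretches each hold 2 matches that overlap by all but a base, and the TNFAIP3 stretch holds 2 separate ones.
REL, chr2:60881518-60881547, plus strand: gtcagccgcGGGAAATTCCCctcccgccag
NFKB1, chr4:102501300-102501329, plus strand: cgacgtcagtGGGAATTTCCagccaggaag
NFKB2, chr10:102394462-102394491, plus strand: aaacgtcatGGGAATTCCCCcctccggggg
TNFAIP3, chr6:137867188-137867217, plus strand: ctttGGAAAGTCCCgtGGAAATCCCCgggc
BIRC3, chr11:102317275-102317304, plus strand: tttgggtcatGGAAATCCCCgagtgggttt
NFKBIA, chr14:35404811-35404840, minus strand: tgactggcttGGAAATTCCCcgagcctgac
The matches began 47, 49, 107, 67, 199 and 81 bases before the start, in the order of these lines. BIRC3 had another match 135 bases before its start, and NFKB2 had further ones in the same window and in a later one. In SW1783 at the high dose of ACD, genes with a match included NFKB2, TNFAIP3 and BIRC3, which rose by over 1.5-fold. They also included NFKBIA, which rose by less, and NFKB1 and REL, whose treated and vehicle libraries overlapped. Of the genes with a window but no match, ICAM1 rose by over 1.5-fold and RELA by less. A match alone thus did not separate these genes, and RELB and NFKBIE could not be placed. Any link between matches and the response was not tested.

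All 10 genes are protein-coding. By GENCODE v44 on GRCh38, NFKB1 (ENSG00000109320) lies on chromosome 4 from 102501330 to 102617302, NFKB2 (ENSG00000077150) on chromosome 10 from 102394110 to 102402524, and REL (ENSG00000162924) on chromosome 2 from 60881491 to 60931612. RELA (ENSG00000173039) lies on chromosome 11 from 65653599 to 65663090 and RELB (ENSG00000104856) on chromosome 19 from 45001461 to 45038192. NFKBIA (ENSG00000100906) lies on chromosome 14 from 35401079 to 35404749 and NFKBIE (ENSG00000146232) on chromosome 6 from 44258166 to 44265788. TNFAIP3 (ENSG00000118503) lies on chromosome 6 from 137867214 to 137883314, BIRC3 (ENSG00000023445) on chromosome 11 from 102317484 to 102339403, and ICAM1 (ENSG00000090339) on chromosome 19 from 10271093 to 10286615. The counts of REL and ICAM1 are uncertain, since they were not whole numbers in 97.2% and 77.8% of the libraries, which shows that reads were shared with other genes. REL overlaps RNU4-51P and another gene on its own strand. RELA, TNFAIP3, BIRC3 and ICAM1 overlap genes on the opposite strand, and the strand setting of the counting was not stated.

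Total counts were 15941255 to 33866644 per library, and the limit that a count of 0 leaves, taken as 3 counts, was 0.089 to 0.188 CPM (counts scaled to a common library total), covering counting error only. Counts of library pairs were compared by chi-square per degree of freedom, which is near 1 for libraries that differ by chance of sampling alone. In SW1783 the pairs of a group gave 1.65 to 3.55. In HT29 they gave 2.33 to 65.1, and replicate 2 of the high dose stood apart, at 64.28 and 65.12. Replicate 1 of the vehicle also differed from replicates 2 and 3, at 13.49 and 15.47 in batch A and 13.79 and 15.78 in batch B. Replicates 2 and 3 gave 3.54 and 3.78 with each other. Pairs of the low dose gave 7.93 to 19.97. Calls that depend on replicate 2 of the high dose are given with and without it. Across the batches, vehicles that shared a replicate number gave 1.44 to 1.61 and the others 1.96 to 16.1, so they may not be separate cultures. Markers largely fitted the lines, with VIM at 4560 ± 260 CPM in SW1783 and EPCAM at 524 ± 39.8 CPM in HT29 (SD, n = 18), each under 0.1 CPM in the other line on average. GFAP and S100B, which define astrocytes, were at or near 0 in SW1783, at 0.102 and 0.085 CPM.

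RELA was the most abundant of the 10 in both lines under vehicle, and the largest differences between the lines were in TNFAIP3 and ICAM1. Levels between genes are given as CPM per kb of the canonical transcript (mean ± SD, n = 3), in batch B vehicle. In SW1783 RELA stood at 28.2 ± 0.897, followed by NFKBIA at 26.5 ± 0.154, ICAM1 at 18.9 ± 0.947, NFKB2 at 8.86 ± 0.893 and RELB at 7.28 ± 0.401. NFKB1 at 5.62 ± 0.108, NFKBIE at 4.87 ± 0.23 and TNFAIP3 at 4.25 ± 0.308 came next. REL at 1.5 ± 0.037 and BIRC3 at 1.5 ± 0.016 came last with overlapping ranges, and no other neighbours in the order overlapped. In HT29 RELA stood at 44.7 ± 0.966, NFKBIA at 13.9 ± 0.689, NFKB1 at 13.8 ± 1.32, NFKB2 at 4.76 ± 0.304 and RELB at 3.76 ± 0.305. NFKBIE at 2.43 ± 0.059, REL at 2.21 ± 0.61, ICAM1 at 1.56 ± 0.299, BIRC3 at 0.742 ± 0.02 and TNFAIP3 at 0.334 ± 0.086 followed. The ranges of NFKBIA and NFKB1 overlapped there, as did those of NFKBIE and REL and those of REL and ICAM1.

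Between the vehicles, 9 of the 10 genes were called. A gene was called when its adjusted p-value was under 0.05 and its fold change over 1.5 in either direction. By that rule 50.7% of the 23948 genes tested differed between the lines, 27.5% higher in SW1783 and 23.2% lower, so many calls are the background here. TNFAIP3 was 12.5-fold higher in SW1783 (log2 fold change 3.65 ± 0.194 SE, DESeq2 adjusted p = 1.91e-77), and ICAM1 was 12.1-fold higher (3.60 ± 0.124, DESeq2 adjusted p = 4.21e-184). The other 5 higher genes, NFKB2, RELB, NFKBIA, NFKBIE and BIRC3, were between 1.88- and 2.04-fold higher. NFKB1, which encodes a subunit precursor, was lower in SW1783 at 0.413-fold, and RELA at 0.638-fold. REL had a log2 fold change of -0.54 ± 0.179, which passed the adjusted p-value but not the fold, and became -0.75 and was called without replicate 1 of the HT29 vehicle. With size factors from nuclear protein-coding genes it was -0.59 and was called as well.

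**Figure D1:**
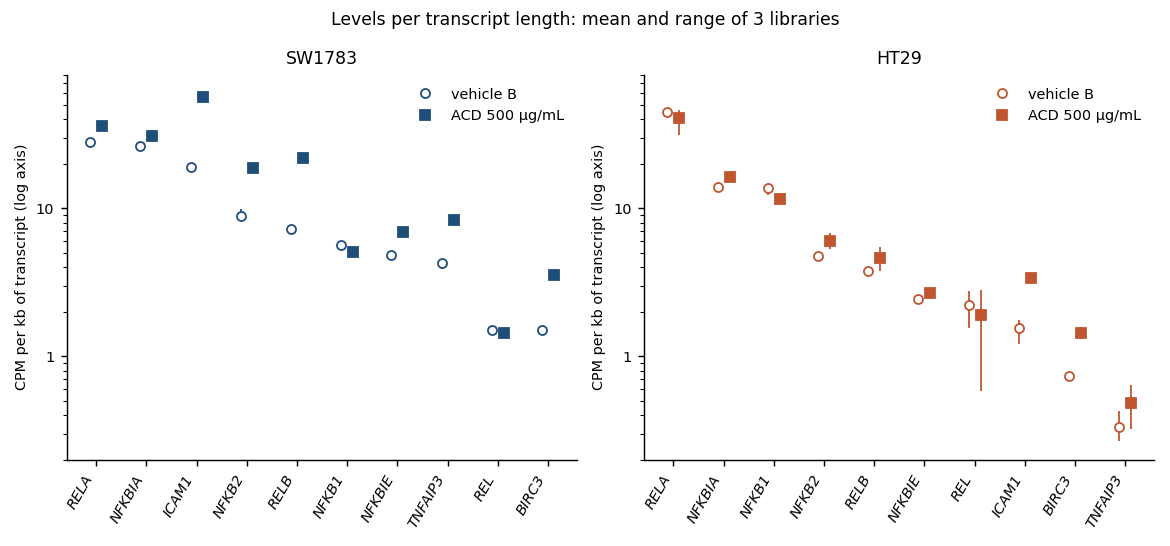
Mean CPM per kb of transcript on a log axis for each gene, with vertical lines for the range of 3 libraries, in vehicle of batch B (open circles) and at 500 µg/mL ACD (filled squares). Genes are ordered by their vehicle mean in each line. ICAM1 went from 18.9 to 56.1 in SW1783 and became the highest of the 10, while RELA stayed first in HT29.

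At 500 µg/mL ACD, RNA of the subunits RELB and NFKB2, the feedback regulators TNFAIP3 and NFKBIE, and the targets BIRC3 and ICAM1 rose in SW1783. They were 6 of the 10 genes, with none lower. Over all genes 17.7% of 20033 tested were called, 8.42% in the direction higher. NFKB1 and REL did not pass the test. The median log2 fold change of the 10 was 0.86, against 0.002 over all genes averaging 10 or more normalized counts. Normalized counts are counts divided by DESeq2's size factors within a line and batch, so they compare groups of a gene and not genes.

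RELB, the partner of the processed NFKB2 product, had normalized counts of 318.7, 352.2 and 327.8 under vehicle and 1113, 1047 and 1097 at the high dose. All treated libraries were far above the vehicle libraries. The log2 fold change was 1.70 ± 0.08 SE, or 3.25-fold (DESeq2 adjusted p = 4.57e-98).

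NFKB2, the precursor subunit of the slower arm, had 510.3, 507.3 and 605.7 under vehicle and 1257, 1184 and 1292 at the high dose. No treated library came near the vehicles. Its log2 fold change was 1.20 ± 0.077 (DESeq2 adjusted p = 4.84e-53).

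TNFAIP3 had 419.1, 366.2 and 418.4 under vehicle and 826.6, 890.1 and 842.7 at the high dose, 2.13-fold higher (log2 1.09 ± 0.086, DESeq2 adjusted p = 1.08e-35). The groups were apart in every library. BIRC3, which adds ubiquitin to signalling proteins and guards cells from death, had 207, 210.3 and 208.1 under vehicle and 544.1, 534.3 and 531.3 at the high dose. Both groups were tight and far apart, at a log2 of 1.36 ± 0.103 (DESeq2 adjusted p = 1.93e-38).

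ICAM1, the surface protein that leukocytes hold on to, had 1095, 1111 and 1205 under vehicle and 3649, 3551 and 3738 at the high dose. It was 3.21-fold higher (log2 1.68 ± 0.047, DESeq2 adjusted p = 2.16e-281), with the limit on its counts given above. NFKBIE, an inhibitor of NF-kB dimers, had the smallest of the called changes. It had 221.3, 228.7 and 243.5 under vehicle and 378.6, 323.4 and 363.8 at the high dose, or 0.62 ± 0.115 on the log2 scale (DESeq2 adjusted p = 3.52e-07). Its fold lay just over the threshold, and without replicate 1 of the high dose the log2 fold change was 0.57, under it, with an adjusted p of 6.89e-05.

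RELA and NFKBIA rose by less than 1.5-fold and so were not called, although both passed the adjusted p-value. Counting by the adjusted p-value alone, 8 of the 10 genes passed, against 45% of all genes tested. RELA, the main activating subunit, had 1388, 1439 and 1482 under vehicle and 1921, 1972 and 2078 at the high dose (log2 0.47 ± 0.05, DESeq2 adjusted p = 6.01e-20). NFKBIA had 840.3, 834 and 832.6 and then 1033, 1059 and 1044 (log2 0.32 ± 0.063, DESeq2 adjusted p = 1.54e-06). Groups did not overlap for either gene.

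NFKB1 had 453.9, 459.1 and 472.5 under vehicle and 488.5, 431.5 and 423.7 at the high dose, and the groups overlapped. Its log2 fold change was -0.05, with a 95% interval from -0.22 to 0.12. REL had 338.2, 344.3 and 329.9, then 372.8, 323.4 and 354.5, and a log2 fold change of 0.05 with an interval from -0.14 to 0.24. These intervals lie inside 1.5-fold in either direction.

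Markers moved with the high dose too. The 6 markers fixed for HT29 summed to 221.75 to 230.63 CPM in the SW1783 vehicle libraries and to 68.72 to 75.11 CPM at the high dose, nearly all of it KRT18, while CDX2 was at 0 in all SW1783 libraries. The 5 immune markers summed to 12.79 to 14.38 CPM under vehicle, 7.42 to 8.85 at the medium dose and 3.36 to 5.17 at the high dose, most of it PTPRC, with CD3E and FCGR3A at 0. The 6 markers for SW1783 summed to 11801 to 12104 CPM under vehicle and 10392 to 10501 at the high dose, and COL1A2 among them went from a mean of 2160 to 537 CPM. Mitochondrial rRNA (MT-RNR1 and MT-RNR2) took 0.91 to 0.96% of the counts in the SW1783 vehicle libraries of batch B and 3.01 to 3.33%, 7.67 to 8.05% and 5.76 to 6.06% at the low, medium and high doses. In HT29 it took 1.14 to 1.22% under vehicle, 0.98 to 1.14% at the low dose, 1.96 to 2.18% at the medium dose and 11.27 to 12.52% at the high dose. With size factors from nuclear protein-coding genes no call of the 10 genes changed in a comparison of treatments or an interaction. In HT29 the markers for HT29 summed to 4917 to 5031 CPM under vehicle and 4344 to 5380 CPM at the high dose, with overlap. VIL1 among them went from a mean of 177 to 139 CPM. The part of the marker shifts in the result was not tested. In bulk samples fewer cells of a kind and less RNA per cell cannot be told apart.

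**Figure D2:**
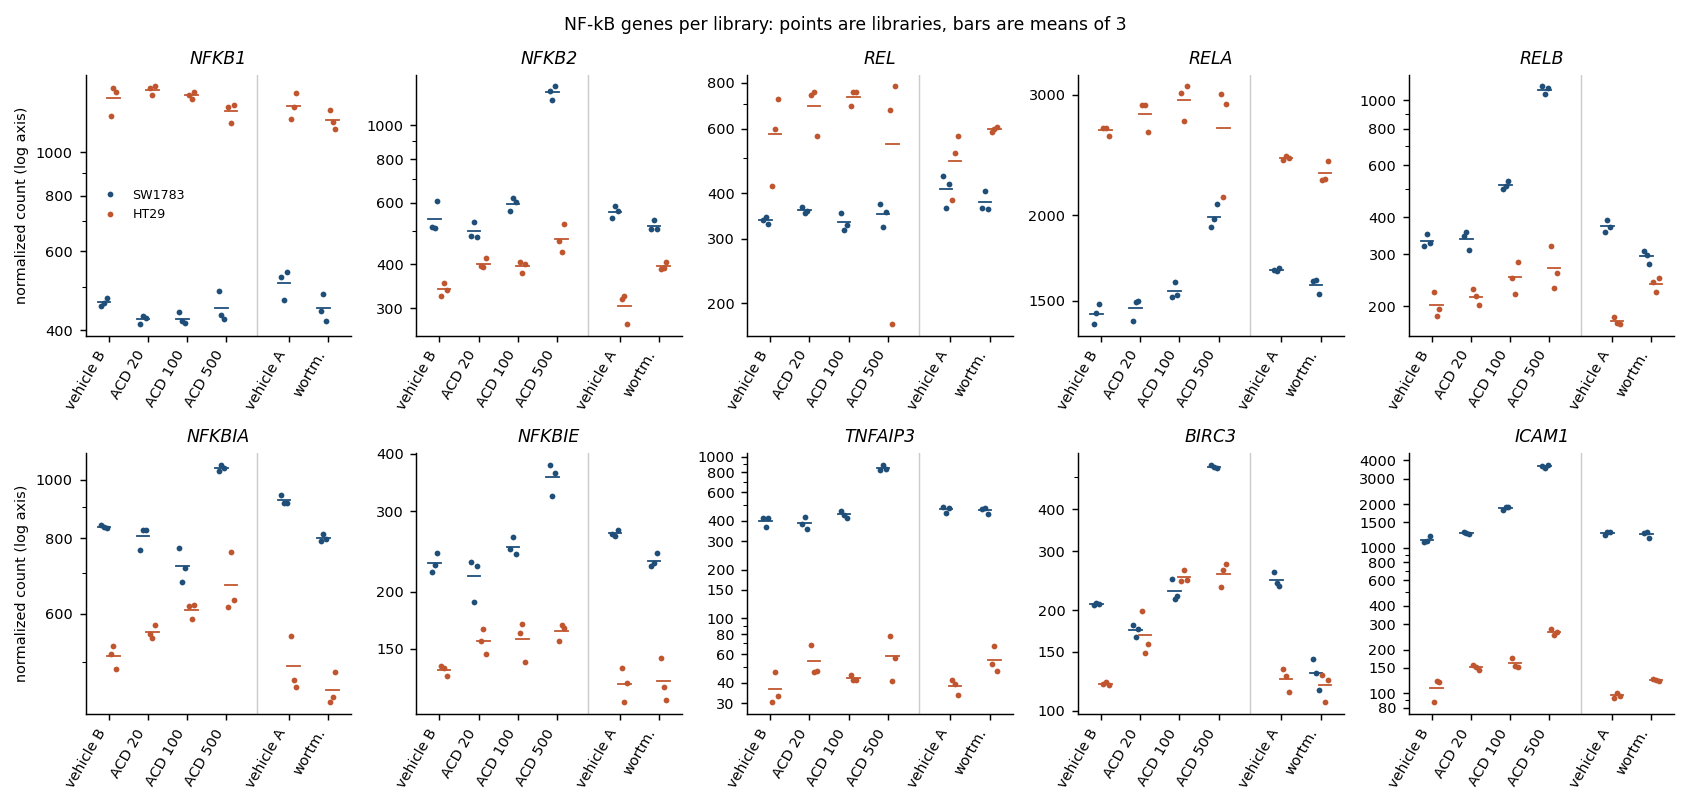
Normalized counts (log axis) of the 10 genes in every library, SW1783 in blue and HT29 in orange, with short bars for the mean of 3. Batch B is left of the grey line (vehicle, then ACD at 20, 100 and 500 µg/mL) and batch A right of it (vehicle, then 10 µM wortmannin). Counts were scaled within each line and batch. In SW1783 the high dose group stands above the others for RELB, NFKB2, TNFAIP3, BIRC3 and ICAM1, and in HT29 replicate 2 of the high dose lies low for REL and RELA.

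At 100 µg/mL, only RELB and ICAM1 were called in SW1783, both higher, and NFKBIA was lower without passing the fold threshold. This was 2 of the 10 genes, against 3.78% of 13802 genes tested, 2.33% higher. RELB had 498.4, 510.7 and 533.3 (log2 0.63 ± 0.085, DESeq2 adjusted p = 3.87e-12), and ICAM1 had 1822, 1908 and 1914 (log2 0.73 ± 0.049, DESeq2 adjusted p = 1.32e-48). Both groups lay between vehicle and high dose without overlap. NFKBIA had 770.8, 677.5 and 714.3, below every vehicle library (log2 -0.22 ± 0.066, DESeq2 adjusted p = 0.0053), whereas at the high dose it lay above them.

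TNFAIP3 at 462.5, 438 and 415.6 overlapped its vehicle at the medium dose, and its log2 fold change of 0.13 had an interval from -0.05 to 0.31. BIRC3 had 248.1, 215.3 and 220.5, just above the vehicle libraries, and a log2 fold change of 0.12 with an interval from -0.10 to 0.34. NFKB2 had 568, 620.7 and 602.1 and a log2 fold change of 0.15 with an interval from -0.01 to 0.31. For these 3 genes a change of 1.5-fold lies outside the interval at the medium dose, although each was over 2-fold at the high dose. NFKB1, REL, RELA and NFKBIE had log2 fold changes between -0.12 and 0.12 and did not pass the test.

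At 20 µg/mL none of the 10 genes was called in SW1783, where 0.119% of 9268 genes tested were called. EdgeR called 0 as well. DESeq2 gave 1 of the 10 an adjusted p under 0.05 at any fold change, against 3.3% of all genes tested. By unadjusted p-values, 2 were under 0.05, with no share of all genes counted at that cut. ICAM1 had 1292, 1264 and 1253, above every vehicle library (log2 0.16 ± 0.05, DESeq2 adjusted p = 0.0475). BIRC3 had 180.8, 166.3 and 175.8, below every vehicle library (log2 -0.26 ± 0.116), and its DESeq2 adjusted p was 0.267. NFKBIE received no adjusted p-value there. The other 8 log2 fold changes lay between -0.12 and 0.09. The same 3 vehicle libraries served all doses, so the doses are not independent.

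The high dose was also set against the medium dose directly, without the vehicle. In SW1783, 5 of the 10 genes were called higher, NFKB2, RELB, TNFAIP3, BIRC3 and ICAM1, against 9.79% of 17199 genes tested, 4.41% higher. BIRC3 had the largest log2 difference at 1.24 ± 0.102 and ICAM1 the smallest of the 5 at 0.95 ± 0.044. The inhibitors NFKBIA and NFKBIE differed by 0.54 ± 0.065 and 0.50 ± 0.114, and RELA by 0.36 ± 0.05, each with an adjusted p under the threshold but under 1.5-fold. NFKBIA reached 0.59 and was called without replicate 1 of the medium dose.

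In HT29, ACD raised BIRC3 and ICAM1, and no other of the 10 genes was called in any ACD comparison with all libraries. At the high dose 2 of the 10 genes were called higher, against 3.13% of 15002 genes tested, 1.36% higher. ICAM1 had 87.38, 121.5 and 119.2 under vehicle and 277.2, 251.3 and 263.6 at the high dose (log2 1.25 ± 0.142, DESeq2 adjusted p = 3.13e-16). BIRC3 had 120.5, 122.2 and 119.2 under vehicle and 234.7, 263.3 and 274 at the high dose (log2 1.09 ± 0.145, DESeq2 adjusted p = 6.82e-12). In both genes every treated library was above every vehicle library. Without replicate 2 of the high dose the log2 fold changes were 1.28 for ICAM1 and 1.08 for BIRC3.

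By the adjusted p-value alone, 4 of the 10 genes passed at the high dose in HT29, against 8.41% of all genes. NFKB2 had 324.3, 354.9 and 338.3 under vehicle and 466.1, 434.2 and 520.4 at the high dose (log2 0.49 ± 0.098, DESeq2 adjusted p = 3.26e-05). NFKBIA had 515, 531.2 and 487.3, then 616.7, 759 and 633.2 (log2 0.38 ± 0.094, DESeq2 adjusted p = 0.00173). Groups did not overlap in either gene.

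RELB had 223.7, 184.4 and 194.7 under vehicle and 319.8, 230.8 and 259.8 at the high dose, a log2 change of 0.44 ± 0.154 and a DESeq2 adjusted p of 0.05, just short of the threshold. Without replicate 2 of the high dose it was 0.53, with an adjusted p of 0.00684, still under 1.5-fold. TNFAIP3 was low in HT29, with 30.45, 46.83 and 32.98 under vehicle and 77.5, 41.03 and 56.75 at the high dose, and the groups overlapped. Its log2 fold change of 0.66 ± 0.294 had an adjusted p of 0.163 with all libraries, and became 0.83 with an adjusted p of 0.0434 without replicate 2, so that it was then called.

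In HT29 the sign of REL at the high dose depended on single libraries, among them the one that stood apart. It had 418.3, 599.2 and 721.4 under vehicle and 675.6, 176.1 and 782.5 at the high dose. The log2 fold change was -0.09 with an interval from -0.99 to 0.82 with all libraries, and 0.33 without replicate 2 (DESeq2 adjusted p = 0.165). Without replicate 3 of the vehicle it was 0.10 (DESeq2 adjusted p = 0.96). RELA had 2685, 2687 and 2616, then 3011, 2128 and 2909, with replicate 2 again the lowest, and its log2 fold change of 0.01 became 0.15 without it. NFKB1 and NFKBIE had log2 fold changes of -0.10 and 0.28 and did not pass the test.

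At 100 µg/mL in HT29, BIRC3 was the only gene of the 10 that was called, against 0.786% of 17177 genes tested, 0.408% higher. It had 243.9, 263.1 and 245.8, about the level of the high dose (log2 1.06 ± 0.143, DESeq2 adjusted p = 9.76e-11). The high and medium doses differed by a log2 of 0.04 in BIRC3, with an interval from -0.23 to 0.30. ICAM1 had 176, 154.1 and 152.2, above every vehicle library (log2 0.53 ± 0.146, DESeq2 adjusted p = 0.0199), under the fold threshold. Without replicate 2 of the vehicle ICAM1 was called too, at 0.62. The other 8 genes had log2 fold changes between 0.02 and 0.34 and did not pass the test.

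At 20 µg/mL in HT29 none of the 10 genes was called, where 0.285% of genes tested were, and DESeq2 gave none of them an adjusted p under 0.05. EdgeR called 0 too. By unadjusted p-values, 3 of the 10 were under 0.05, and the share of all genes at that cut was not counted. BIRC3 had 199.2, 148.6 and 158.9 and ICAM1 156.9, 152.8 and 144.8, both above every vehicle library, with log2 fold changes of 0.49 ± 0.147 and 0.45 ± 0.147. Their DESeq2 adjusted p-values were 0.102 and 0.161. All 10 log2 fold changes were above 0 at the low and medium doses in HT29. Their medians were 0.23 and 0.24, against 0.003 and -0.001 over all genes. That of NFKB1 at the medium dose became -0.038 without replicate 1 of the vehicle. Of the 10, the high dose exceeded the medium dose by the call rule in ICAM1 alone, at a log2 of 0.72 ± 0.135 (DESeq2 adjusted p = 1.48e-05), against 0.687% of genes, 0.38% higher.

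**Figure D3:**
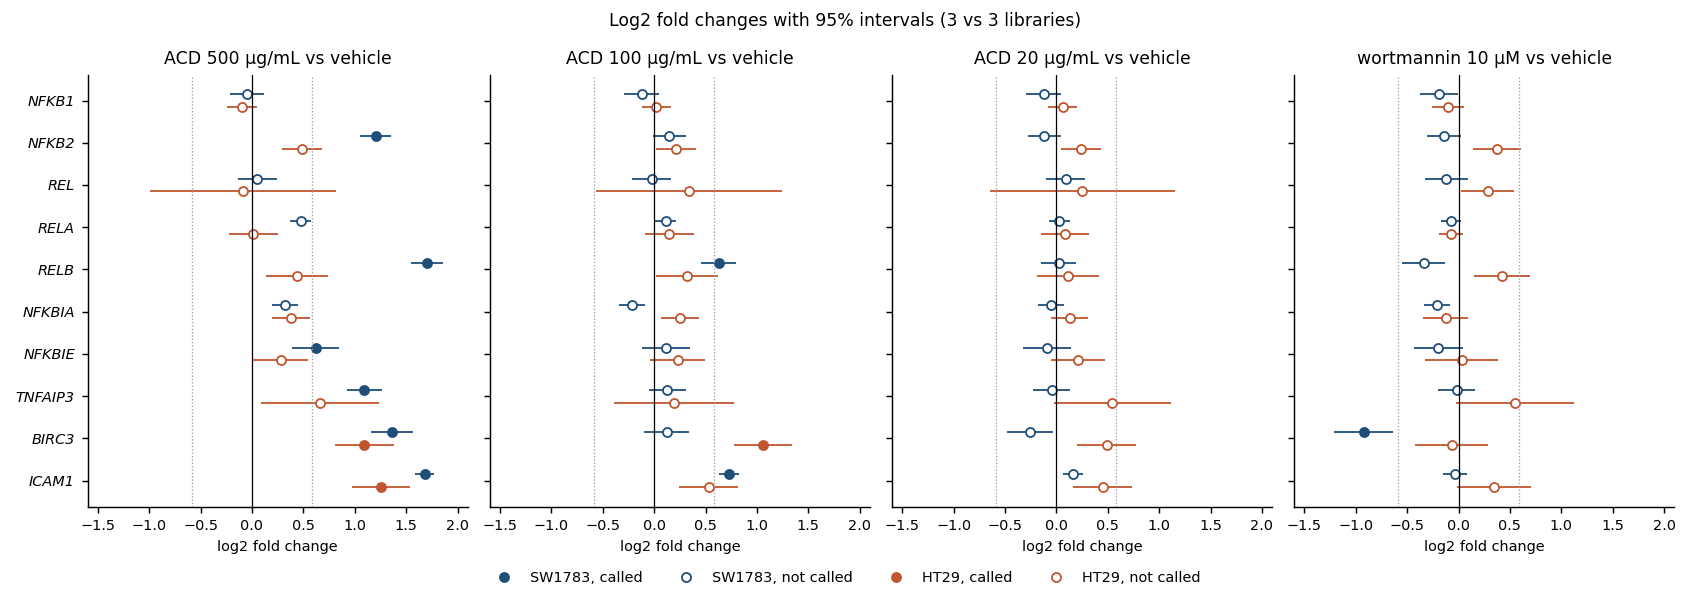
Log2 fold changes of each treatment against the vehicle of its own batch, with lines for 95% intervals, SW1783 in blue and HT29 in orange. Filled points were called and dotted lines mark 1.5-fold. In SW1783 the 6 called genes at 500 µg/mL range from 0.62 in NFKBIE to 1.70 in RELB, in HT29 BIRC3 and ICAM1 are filled, and wortmannin has BIRC3 in SW1783 as its 1 filled point.

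The response to ACD differed between the lines for NFKB2 and RELB at the high dose and for BIRC3 at the lower doses. Interactions tested the difference itself, as the log2 fold change in SW1783 minus that in HT29. At the high dose 2 of the 10 genes were called, both higher in SW1783, against 14.6% of 18384 genes tested, 6.86% higher. The difference was 1.21 ± 0.151 in RELB (DESeq2 adjusted p = 4.52e-14) and 0.67 ± 0.118 in NFKB2 (DESeq2 adjusted p = 1.82e-07). With replicate 2 of the HT29 high dose left out they were 1.12 and 0.62, and both were still called. RELA and ICAM1 differed by 0.41 ± 0.13 and 0.39 ± 0.115, with an adjusted p under the threshold and a difference under 1.5-fold. Without that library RELA differed by 0.27 and ICAM1 by 0.37, again with an adjusted p under the threshold.

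TNFAIP3 and NFKBIE were called in SW1783 and not in HT29, and their differences did not pass the test. TNFAIP3 differed by 0.40 with an interval from -0.05 to 0.84, and by 0.13 to 0.62 with a library left out. Without replicate 1 of the HT29 high dose it was 0.62 and was called (DESeq2 adjusted p = 0.0387), and without replicate 2, the library that stood apart, it was 0.26 (DESeq2 adjusted p = 0.432). NFKBIE differed by 0.29 with an interval from -0.01 to 0.60. BIRC3 rose in both lines at the high dose and the difference of 0.22 had an interval from -0.07 to 0.51.

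BIRC3 was the 1 gene of the 10 called at the medium dose, where 3.31% of 15186 genes were called, 1.52% lower in SW1783. The difference was -0.96 ± 0.153 (DESeq2 adjusted p = 3.38e-08), since BIRC3 was 2.08-fold higher in HT29 and had a log2 fold change of 0.12 in SW1783. At the low dose BIRC3 was again the 1 gene called, at -0.77 ± 0.159 (DESeq2 adjusted p = 6.64e-04), against 0.261% of 12628 genes, 0.158% lower. There its change had not been called in either line alone, with SW1783 below its vehicle and HT29 above. All 10 differences were below 0 at the low dose, and those of the other 9 genes lay between -0.60 and -0.08. That of REL became 0.001 without replicate 1 of the HT29 vehicle. NFKBIA differed by -0.49 ± 0.094 at the medium dose, with an adjusted p of 1.07e-05 by DESeq2 but under 1.5-fold.

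**Figure D4:**
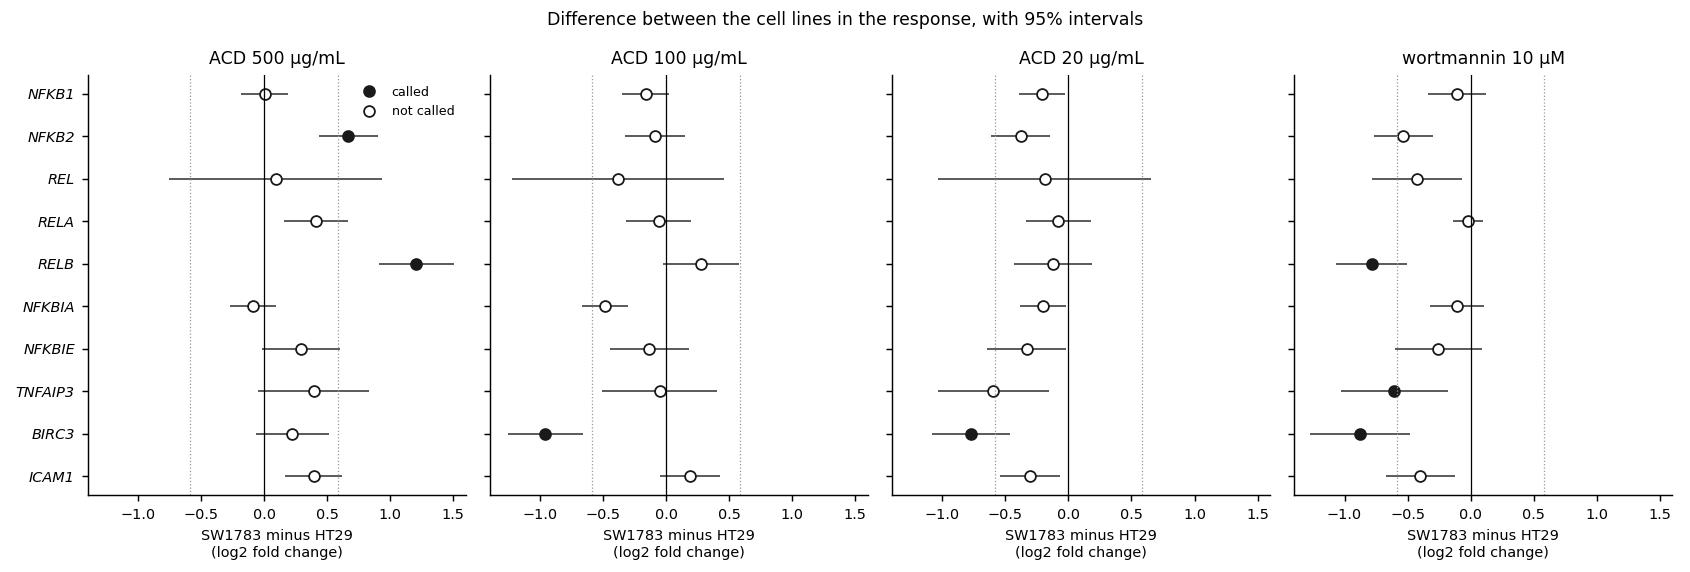
Difference between the lines in log2 fold change (SW1783 minus HT29) with 95% intervals for ACD at 500, 100 and 20 µg/mL and for wortmannin. Filled points were called and dotted lines mark 1.5-fold. RELB and NFKB2 lie to the right at 500 µg/mL, and BIRC3 lies to the left at 100 and 20 µg/mL and with wortmannin.

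Wortmannin lowered BIRC3 in SW1783 and left the other 9 genes uncalled there and all 10 uncalled in HT29. In SW1783 the call was 1 of 10, against 2.67% of 14810 genes tested, 0.952% lower. BIRC3 had 260, 240.8 and 236.8 in the vehicle of batch A and 143.3, 130.1 and 115.6 with wortmannin. The groups were apart, at a log2 of -0.92 ± 0.147, or 0.527-fold (DESeq2 adjusted p = 4.47e-09). All 10 log2 fold changes were below 0, with a median of -0.17 against 0.003 over all genes. Those of TNFAIP3 and ICAM1 lay near 0 and became 0.018 and 0.003 without replicate 3 of wortmannin. Markers moved here too. In SW1783 the immune list summed to 13.31 to 14.25 CPM under the vehicle of batch A and 9.85 to 11.76 CPM with wortmannin, the SW1783 list to 11512 to 11877 and then 14134 to 14355 CPM, and the HT29 list to 216.08 to 225.02 and then 238.19 to 249.71 CPM. In HT29 the HT29 list summed to 5012 to 5200 CPM under the vehicle of batch A and 5523 to 5574 CPM with wortmannin. The immune list there summed to 3.42 to 4.54 and then 5.1 to 5.9 CPM. The part of these shifts in the result was not tested.

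By the adjusted p-value alone, 3 of the 10 genes passed with wortmannin in SW1783, against 31.7% of all genes. They were BIRC3, RELB and NFKBIA. RELB had 355.9, 390.3 and 371.7 and then 308.3, 297.9 and 277.6 (log2 -0.34 ± 0.108, DESeq2 adjusted p = 0.00669), and NFKBIA had 945.1, 915.3 and 916.7 and then 791, 813.3 and 797.8 (log2 -0.21 ± 0.066, DESeq2 adjusted p = 0.0069). ICAM1 and TNFAIP3 had log2 fold changes of -0.04 and -0.02, with intervals from -0.15 to 0.08 and from -0.20 to 0.16, and the other 5 lay between -0.20 and -0.07.

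In HT29 wortmannin called none of the 10 genes by DESeq2, where 2.7% of 12553 genes tested were called. By the adjusted p-value alone 2 of the 10 passed, against 20.7% of genes. An unadjusted p under 0.05 was found for 3, and the share of all genes at that cut was not counted. EdgeR called 0. NFKB2 had 319.2, 324.6 and 270.8 under vehicle and 388.4, 390.5 and 407.1 with wortmannin (log2 0.37 ± 0.118, DESeq2 adjusted p = 0.012). RELB had 182.9, 175.5 and 174.2 and then 242.2, 224 and 248 (log2 0.42 ± 0.139, DESeq2 adjusted p = 0.0159). Both were above all vehicle libraries in HT29 and below all of them in SW1783, where NFKB2, at a log2 of -0.14, did not pass the test. BIRC3 had 133.8, 127 and 113.5 and then 128.1, 106.3 and 123.4, and the groups overlapped. ICAM1 had 93.29, 101.3 and 96.56 and then 125.9, 124 and 121.1 (log2 0.35 ± 0.183), and TNFAIP3 had 41.74, 39.24 and 33.85 and then 52.29, 67.3 and 47.47 (log2 0.55 ± 0.292). In both the groups were apart, but neither passed the test, each with a DESeq2 adjusted p of 0.176. The other 5 log2 fold changes lay between -0.13 and 0.28.

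The response to wortmannin differed between the lines in RELB, TNFAIP3 and BIRC3, each lower in SW1783. This was 3 of the 10, against 3.39% of 13280 genes tested, 2.52% lower. By the adjusted p-value alone it was 5 of the 10, with NFKB2 and ICAM1, against 15.3%. The difference was -0.79 ± 0.145 in RELB (DESeq2 adjusted p = 2.41e-06) and -0.88 ± 0.201 in BIRC3 (DESeq2 adjusted p = 2.5e-04). The difference of -0.61 ± 0.217 in TNFAIP3 (DESeq2 adjusted p = 0.0368) lay close to both thresholds. It was not called under edgeR, at -0.57. With size factors by the TMM scaling of edgeR it was not called by DESeq2 either, at -0.571 (DESeq2 adjusted p = 0.053). It was also lost when any of 8 of the 12 libraries was left out, namely vehicle replicates 2 and 3 or wortmannin replicate 2 in HT29, and vehicle replicates 1 and 3 or wortmannin replicate 1, 2 or 3 in SW1783. The value without 1 library ran from -0.70 to -0.43. With replicate number added to the fit as a block, TNFAIP3 had -0.59 (DESeq2 adjusted p = 0.298) and BIRC3 -0.88 (DESeq2 adjusted p = 0.0827). Neither was called then. NFKB2, at -0.53, reached -0.59 and was called without vehicle replicate 2 in HT29.

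The other genes of the pathway were taken from lists of 14 receptors, 26 kinases and adaptors, 16 other regulators and 39 targets, of which 38 targets matched a gene. These lists, like the 10 genes, were chosen with earlier results of these data known. Setting their shares against all genes is thus a description and not a test. Most calls fell among targets. At the high dose in SW1783, 17 of the 38 targets were called higher, against 8.42% of all genes tested, and 1 lower, with a median log2 fold change of 0.95 over the 29 with a mean of 10 or more. Among targets with a mean of 100 or more normalized counts over the 12 libraries of batch B, the largest rises were in CXCL8, a chemokine for neutrophils, at 4.42 ± 0.113, in the cytokine IL6 at 3.48 ± 0.15 and in the stress response gene IER3 at 3.45 ± 0.218. CXCL8 went from 101 ± 8.52 to 2168 ± 133 normalized counts (SD, n = 3). Of the targets with fewer counts, named after their values were seen, CXCL3 at 5.22 ± 0.38, CXCL2 at 5.21 ± 0.374 and CSF2 at 4.93 ± 0.682 rose by more than CXCL8, and IL1A at 4.2 ± 0.31 and CXCL1 at 3.81 ± 0.548 by more than IL6. CCL2, a chemokine for monocytes, was the target that fell, by 1.21 ± 0.122.

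The share of upstream genes called at the high dose in SW1783 lay near that of all genes, at 17.7%, so the counts are no result about these lists. Of the 26 kinases and adaptors 4 were higher and 3 lower, of the 16 other regulators 2 were higher and 1 lower, and of the 14 receptors 2 were lower. MAP3K14, the kinase that drives NFKB2 processing, fell from 1314 ± 25.8 to 440 ± 22.6 normalized counts (log2 -1.58 ± 0.067, DESeq2 adjusted p = 2.62e-119), while NFKB2 and RELB rose. The kinase IKBKE fell by 1.38 ± 0.156. At the medium dose 9 targets were called higher, against 2.33% of all genes tested. IL6 at 0.95 ± 0.162 and CXCL8 at 0.93 ± 0.127 had the largest rises among those with a mean of 100 or more, while CXCL2 at 2.37 ± 0.397, CXCL3 at 2.09 ± 0.41 and IL1A at 1.61 ± 0.335 rose by more from fewer counts. CCL2 and MAP3K14 fell by 0.92 ± 0.12 and 0.63 ± 0.062. At the low dose no pathway gene was higher. PTGS2, the inducible prostaglandin enzyme, fell by 0.65 ± 0.058 and CCL2 by 0.61 ± 0.117, where 0.0216% of genes tested were called lower. These 2 calls became 1 when replicate 1 or 3 of the vehicle or any replicate of the low dose was left out. Between the high and medium doses CXCL8 differed by 3.50 ± 0.099 and IER3 by 2.59 ± 0.192. From fewer counts, CSF2 differed by 3.96 ± 0.568, more than CXCL8, and CXCL1, CXCL3 and CXCL2 differed by more than IER3. MAP3K14 and IKBKE were lower at the high dose by a log2 of -0.95 ± 0.07 and -0.91 ± 0.161.

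In HT29 the calls of ACD among these lists were all targets and all higher, with 10, 8 and 4 of the 38 at the high, medium and low doses. Over all genes 1.36% were higher at the high dose, 0.408% at the medium dose and 0.134% at the low dose. The count at the low dose became 2 without replicate 2 of the vehicle and also by edgeR. That at the medium dose became 4 in a fit on the 2 groups compared. At the high, medium and low doses CXCL1, a chemokine related to CXCL8, rose by 4.05 ± 0.212, 3.01 ± 0.214 and 2.04 ± 0.218. CXCL8 rose by 3.09 ± 0.261, 2.08 ± 0.262 and 1.36 ± 0.264. Targets with fewer counts were named after their values were seen. C3 rose by more than CXCL1, at 6.915 ± 1.218, 6.612 ± 1.218 and 5.506 ± 1.227. Its mean was 0.4413 normalized counts under vehicle and 43.09 at the high dose. CCL20 rose by more than CXCL8, at 4.03 ± 0.387, 2.69 ± 0.395 and 1.9 ± 0.404. At the high dose IER3 rose by 0.71 ± 0.108. CXCL1, CXCL8 and CCL20 were also higher at the high than at the medium dose, by 1.05 ± 0.171, 1.01 ± 0.251 and 1.35 ± 0.287. They were among 4 targets called between these doses, against 0.38% of all genes tested. The count became 2 without replicate 2 of the high dose or replicate 1 or 3 of the medium dose.

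With wortmannin the calls were few, 2 of the 94 listed genes in each line, against 2.67% of genes tested in SW1783 and 2.7% in HT29. In SW1783 there were 2 targets with lower values, TNFAIP6 with a log2 of -0.62 ± 0.164 and CXCL8 with -0.61 ± 0.193. Without replicate 2 or 3 of the vehicle or replicate 1 of wortmannin 1 gene was called lower, and without replicate 2 of wortmannin none. In HT29 the receptor TLR3 was higher, at 0.74 ± 0.191, and the inhibitor NFKBIB lower, at -0.59 ± 0.105. No gene was called lower there without replicate 1 of the vehicle or replicate 2 or 3 of wortmannin.

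**Figure D5:**
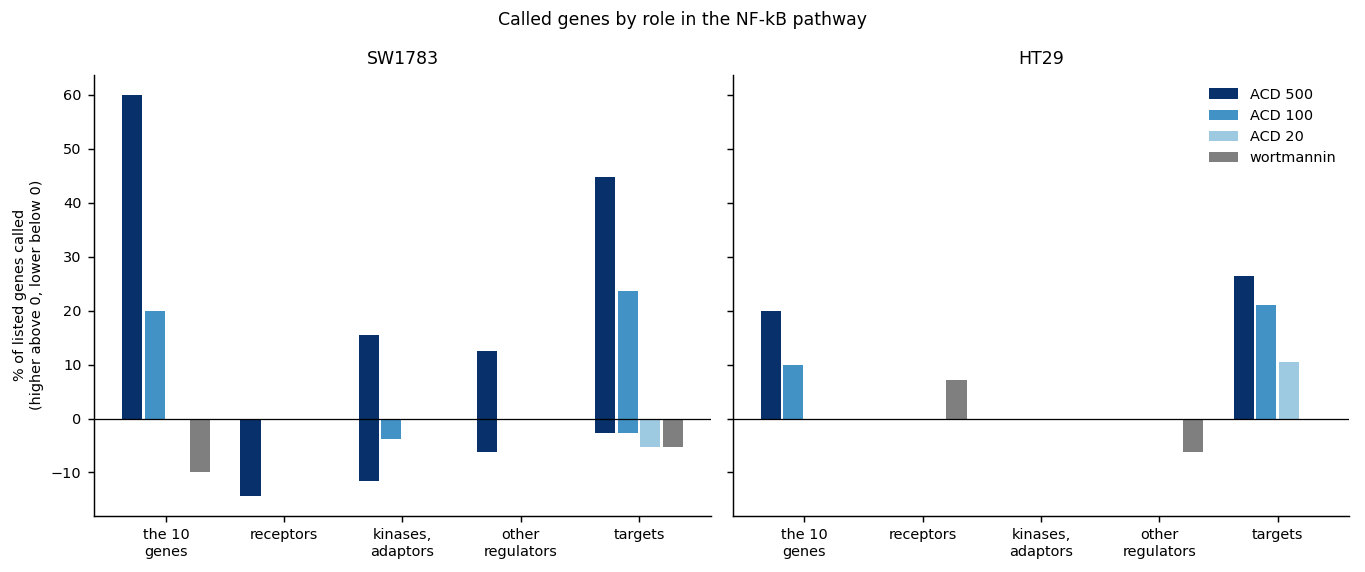
Percent of the genes of each list that were called higher (bars above 0) or lower (bars below 0) in each comparison with vehicle, for the 10 genes and for 4 lists of other pathway genes, SW1783 on the left and HT29 on the right. ACD doses are in µg/mL. In SW1783 at 500 µg/mL, 6 of the 10 genes and 17 of 38 targets were higher, and in HT29 the ACD bars stand only over the 10 genes and the targets.

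Genes whose pattern was most like each of the 10 were sought across the 18 libraries of a line, on log2 of the normalized count plus 1, among 9679 or 9680 genes with a mean of 100 or more in both lines. Likeness was the smaller of the Pearson r values in the lines, given with no test, since libraries of a group share treatment and batch. CXCL8 led the list for BIRC3, with r of 0.925 in SW1783 and 0.933 in HT29, and also that for NFKBIE, with 0.961 and 0.81. For ICAM1 it was MOCOS, with 0.96 and 0.924, and for NFKBIA PGD, with 0.896 and 0.891. NFKB2 was most like EML2, with 0.9 and 0.901, RELB most like APOL6, with 0.927 and 0.852, and RELA most like ATXN2L, with 0.944 and 0.935. The values were lower for TNFAIP3 with PABPC1L, at 0.827 and 0.805, for NFKB1 with FAM168B, at 0.769 and 0.709, and for REL with ACACA, at 0.655 and 0.95. The next gene was SPSB1 for BIRC3, ACADVL for NFKBIE, DNAJC10 for ICAM1, GCLM for NFKBIA, RAB11FIP2 for NFKB2, PHKA1 for RELB, CHD2 for RELA, SETDB1 for TNFAIP3, UGGT1 for NFKB1 and ENSG00000279232 for REL. The smaller r of these pairs lay between 0.635 for REL and 0.933 for RELA. The r of REL and RELA in HT29 includes the library that stood apart.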

How the data were processed

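RNA was sequenced from SW1783 and HT29 cells in 12 groups of 3 libraries. The authors trimmed reads with Trim Galore 0.6.5, aligned them with STAR 2.7.3a and quantified genes with RSEM 1.3.3, by the submitters' processing notes, and deposited expected counts per gene and library, not normalized. RSEM divides reads with several positions between genes by a model, so that 8.84% of the deposited expected counts were not whole. They were rounded to whole numbers. The methods name GRCh38 together with hg19, so positions from GENCODE v44 (GRCh38) describe genes only. All columns were used.

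Treatments were compared with the vehicle of their own batch with DESeq2 1.42.0 (R 4.3.3) and its Wald test, over all genes, two-sided, with Benjamini-Hochberg adjustment. The groups of a line and batch shared a fit, and interactions used both lines. Called genes had an adjusted p under 0.05 and a fold change over 1.5. Scripts were tested on simulated data. Alternatives were edgeR 4.0.16, other size factors, a filter of 10 counts in 3 libraries, other sample sets, a replicate block, no fold threshold and leaving out each library.

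The 10 members and the lists were chosen with earlier results of these data known. All members are named. Pathway genes are named when called, with a mean of 100 or more and groups apart, as the 3 largest changes of each sign at the high dose and with wortmannin and the 2 largest otherwise. The 2 most alike genes per member are named. SOD2 had no match.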

Additional observations from a re-analysis of the deposited data

Results flagged for a closer look

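The 7 results below were picked out because the response to the same treatment differed between the cell lines by the interaction test of DESeq2 over all genes, on log2 fold changes in SW1783 minus HT29 (3 libraries per group). At the high dose of ACD the difference was 1.21 ± 0.151 in RELB and 0.67 ± 0.118 in NFKB2. BIRC3 differed by -0.96 ± 0.153 at the medium dose and by -0.77 ± 0.159 at the low dose. With wortmannin the differences were -0.79 ± 0.145 in RELB, -0.61 ± 0.217 in TNFAIP3 and -0.88 ± 0.201 in BIRC3. Those of TNFAIP3 and BIRC3 were not called under every alternative, as given below. The lines were kept in different media, so line and medium cannot be told apart. Groups of 3 were too small for a search for single outlying libraries by gap and range.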

How the results depend on the processing

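Of the 34 calls of a member in a comparison, 31 held under every alternative run for them, and 438 of the 451 alternative values were called in the same direction. The other 13 belonged to NFKBIE at the high dose in SW1783 (0.57 to 0.68 with a library left out), to TNFAIP3 and to BIRC3 in the wortmannin interaction. Without the fold threshold the count of members called in SW1783 was 1 at the low dose, 8 between high and medium dose and 3 with wortmannin. Over all genes tested these shares were 3.3%, 39% and 31.7%. In HT29 the count was 4, 2 and 2 at the high and medium doses and with wortmannin, against 8.41%, 1.96% and 20.7%. In the interactions with the high dose, the medium dose and wortmannin it was 4, 2 and 5, against 27.7%, 10.3% and 15.3%. With a library left out, the count at the medium dose in HT29 was 1 to 2. No call of a member turned its direction.

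The same-number correlations of deviations from the group means were between -0.474 and 0.356, and no treatment had all of them over 0.1. Both ends came from the high dose in HT29, where replicate 2 stood apart. Deviations within a group of 3 depend on each other, so this check cannot exclude that replicate numbers pair the samples. With the replicate block the members called in the wortmannin interaction were 1 instead of 3, TNFAIP3 having -0.59 with an adjusted p of 0.298 and BIRC3 -0.88 with 0.0827, and it changed no other count of members.

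Among values that were not called, 35 in 19 comparisons changed sign, none above 0.187 in size with all libraries. RELA had -0.007 at the high dose in HT29 with size factors from nuclear protein-coding genes, and 0.015 by edgeR and 0.017 with TMM factors in the wortmannin interaction. With a library left out the ranges in SW1783 were -0.065 to 0.009 for REL at the medium dose, -0.022 to 0.078 for RELB and -0.112 to 0.011 for TNFAIP3 at the low dose, and -0.058 to 0.018 for TNFAIP3 and -0.06 to 0.003 for ICAM1 with wortmannin. In HT29 they were -0.44 to 0.327 for REL and -0.075 to 0.151 for RELA at the high dose, -0.038 to 0.062 for NFKB1 at the medium dose, and -0.06 to 0.088 for NFKBIE and -0.131 to 0.011 for BIRC3 with wortmannin. Between high and medium dose in HT29 they were -0.224 to 0.005 for RELA, -0.016 to 0.215 for RELB, -0.024 to 0.115 for NFKBIE and -0.019 to 0.101 for BIRC3. In the interactions they were -0.056 to 0.057 for NFKB1 and -0.324 to 0.443 for REL at the high dose, -0.313 to 0.046 for TNFAIP3 at the medium dose, -0.374 to 0.001 for REL at the low dose and -0.036 to 0.009 for RELA with wortmannin. The causes were not tested. Of the other pathway genes, the 2 lower at the low dose in SW1783 became 1 with TMM factors, with size factors from nuclear genes, with the filter on low counts, with the replicate block and with 5 of 6 libraries left out in turn. The 2 lower with wortmannin in SW1783 became 1 with the replicate block, and in HT29 the 1 higher and the 1 lower both became 0 with it, the lower one also by edgeR. In HT29 the 8 higher at the medium dose became 4 in a fit on the 2 groups compared, the 4 higher at the low dose became 2 by edgeR, and the 4 higher at the high than at the medium dose became 2 under both of these. With 3 libraries a group, changes of weakly counted genes such as TNFAIP3 in HT29 had intervals too wide to read.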
